A study of Mus musculus with 16 samples.

Results

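Collagen chain genes were taken as every gene whose symbol is Col, a type number, the letter a and a chain number, and 37 such genes with 59 probes were found among 16593 genes with 25697 probes on the array. They were measured in gastrocnemius, a mixed calf muscle, of B6C3F1/J mice. The array groups were 4 N17182Q transgenic (Tg) mice given vehicle, 4 wild-type (WT) mice given vehicle, 3 Tg mice given 4b and 5 WT mice given 4b, with 1 array per mouse. Compound 4b inhibits histone deacetylases. N17182Q mice express an N-terminal piece of huntingtin with a lengthened glutamine repeat under the prion promoter, which is active in many tissues and not in muscle alone. The sources used here give no dose, duration, age or sex. Comparisons of genotype were made within vehicle, within 4b and averaged over both treatments, and comparisons of 4b within each genotype, so that several comparisons share arrays.

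Collagens are secreted helices wound from several alpha chains. Fibrillar collagens form the ropes of tendon and of the connective tissue sheaths around muscle fibres, type IV collagen forms the sheet of the basement membrane, and type VI collagen forms beaded filaments that join the basement membrane to the matrix around it. In skeletal muscle most of these chains are made by fibroblasts, and inherited loss of type VI collagen causes muscle disease.

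In Tg muscle Col1a1, Col3a1, Col5a1, Col6a1, Col6a2, Col15a1, Col18a1 and Col4a5 were lower than in WT muscle under both treatments, while the main type IV chains, Col4a1 and Col4a2, did not differ beyond their spread. Of the 37 genes, 23 had at least 1 probe detected (detection p under 0.05) on at least 3 arrays and entered the test. With vehicle, 8 of these 23 were called lower in Tg mice and 0 higher (limma, adjusted p under 0.05 over 10295 tests), where 2.91% of all genes tested were called lower and 2.39% higher. The Tg and WT arrays did not overlap in 10 of 23 genes, all lower in Tg, against 6.56% of all genes, and 14 had an unadjusted p under 0.05, against 21.3%. With 4b, 12 of 23 were called lower in Tg mice and 0 higher, where 12.8% of all genes were called lower and 15.5% higher. The Tg and WT arrays did not overlap in 12 of 23 genes, the same 12 that were called lower, against 14% of all genes. An unadjusted p under 0.05 was found for 12 of 23, against 40%. Averaged over both treatments, 12 were called lower and 2 higher, where 15.4% of all genes were called lower and 17.9% higher, and 14 of 23 had an unadjusted p under 0.05, against 42.8%. With arrays scaled to a common median instead, the split of all calls lay further towards higher, at 183 lower and 276 higher with vehicle (300 and 246 before), 837 and 1853 with 4b (1314 and 1597 before), and 1063 and 2106 averaged (1582 and 1838 before). The collagen genes called lower were then 6, 12 and 12. The median log2 difference of the 23 was −0.79 with vehicle and −1.22 with 4b, against 0.0094 and −0.0045 for all genes. The filter on detection is met more easily by a gene that is high in 1 group, so these counts do not describe all 37 members; without the filter 6, 11 and 12 genes were called lower. Of the 14 genes outside the test, none had a probe detected on 3 arrays. They were Col5a2, Col11a1, Col27a1, Col4a3, Col4a4, Col4a6, Col6a6, Col9a3, Col19a1, Col13a1, Col8a2, Col10a1, Col26a1 and Col28a1. Col6a3, Col6a4, Col6a5, Col8a1, Col12a1, Col20a1, Col21a1 and Col22a1 were not analysed here.

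**Figure D1:**
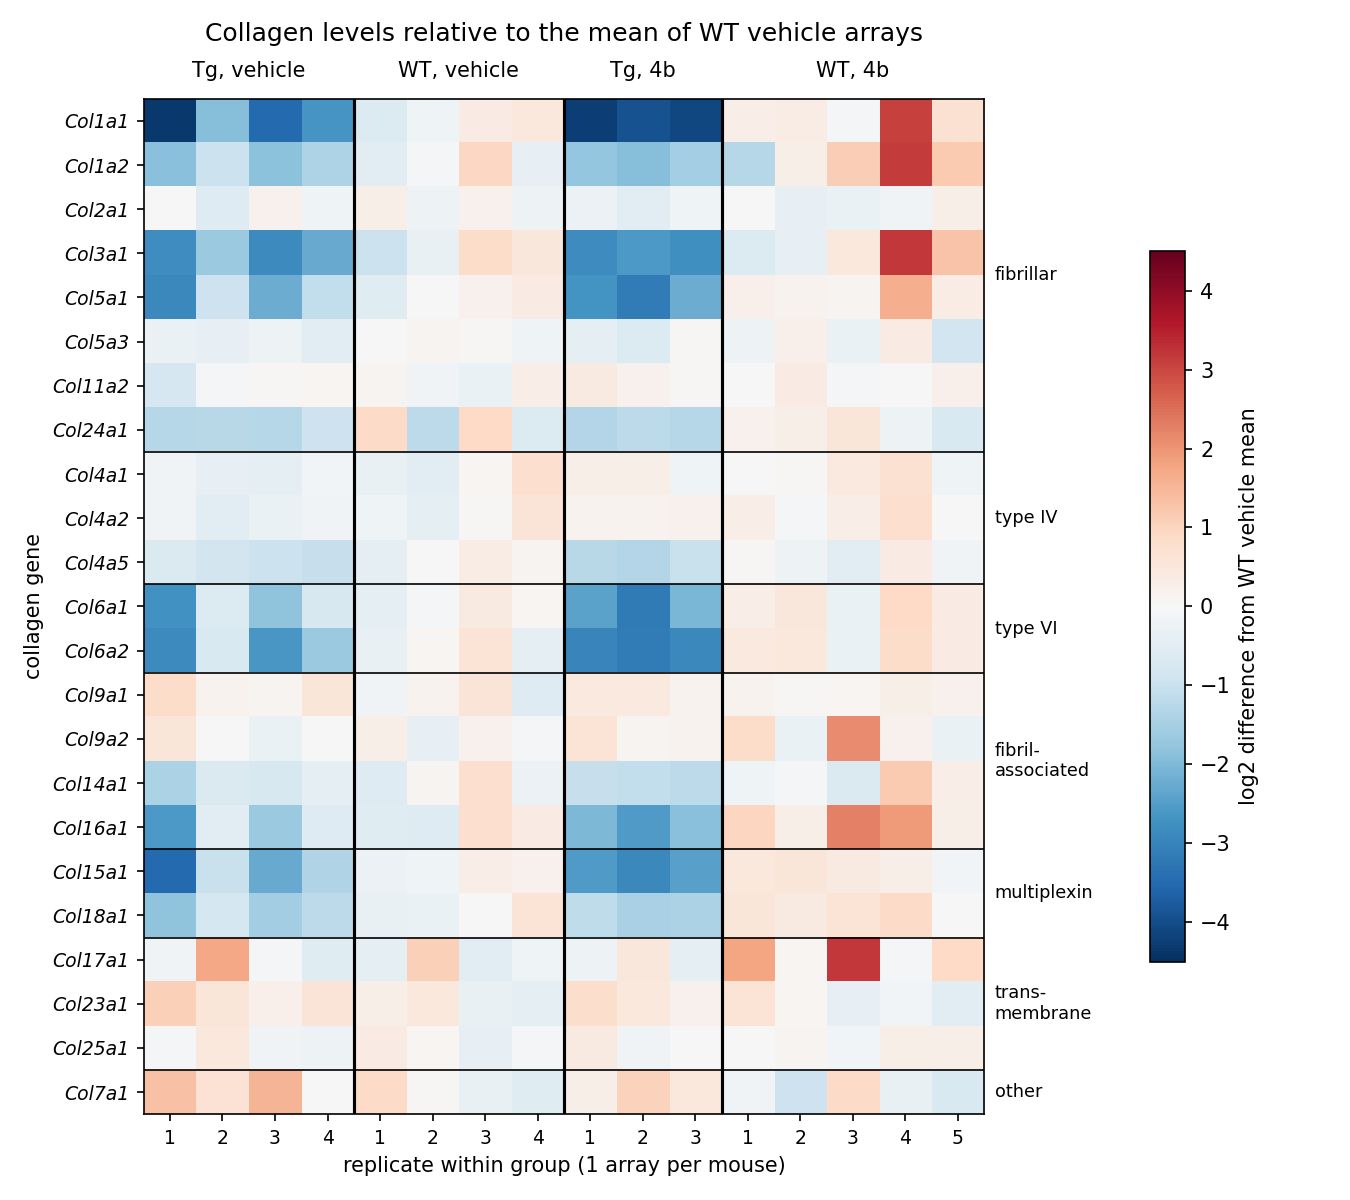
Log2 difference of each array from the mean of the WT vehicle arrays for the 23 tested collagen genes, in rows by class, with arrays in columns by group (blue lower, red higher). Col1a1, Col3a1, Col5a1, Col6a1, Col6a2, Col15a1 and Col18a1 are blue in every Tg column, and the rows of Col4a1 and Col4a2 are close to white on every array.

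The data were even across the series: the share of probes detected ran from 42.7% to 50.3% over the arrays, and arrays correlated at 0.901 to 0.985 over tested rows. The tissue label was met by its markers, since the mean log2 level of 7 skeletal muscle fibre markers was 14.53 to 14.83 in Tg vehicle mice, against 14.94 to 15.01 in WT vehicle mice, and 14.65 to 14.77 in Tg 4b mice, against 14.87 to 15.04 in WT 4b mice. Every Tg array thus lay below every WT array for the mean of these markers too. Of the 7, 2 were called lower under each treatment, against 2.91% of all genes with vehicle and 12.8% with 4b. They were Myh4 and Actn3, the heavy chain and an actin crosslinker of fast fibres, with vehicle (−1.06 and −0.47) and with 4b (−0.79 and −0.41). The other 5 were not called under either treatment. The part of the fibre markers in the collagen differences was not tested. Markers of other cell types set single arrays apart. Adipocyte markers, 8 of 10 tested, averaged 10.53 on WT vehicle 4, 11.07 on WT 4b 1 and 10.63 on WT 4b 3. All other arrays lay at 9.35 or below, and the part of these markers in the collagen differences was not tested. Lymphocyte markers averaged over 6.5 log2 units on 6 arrays (Tg vehicle 4, WT vehicle 4, Tg 4b 1 and 2, WT 4b 1 and 3), and the keratin Krt14 of skin epithelium was over 6.5 on 6 arrays (Tg vehicle 2, WT vehicle 2, Tg 4b 2, WT 4b 1, 3 and 5). Without the 6 lymphocyte-marker arrays the counts called lower were 4 with vehicle, 0 with 4b and 11 averaged over treatments. Without the 6 Krt14 arrays they were 1, 2 and 12. These omissions, chosen after the data were seen, left 1 and 2 Tg 4b arrays, the lone one being assumed to vary like the other groups.

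Promoters of 4 of the chains called lower are shown because these chains differed together between genotypes; the 4 were chosen after their values were seen. Col1a2 encodes the second chain of type I collagen, Col3a1 the chain of type III, Col5a1 a chain of type V and Col6a1 a chain of type VI. Each line gives the 250 bases before the RefSeq start on GRCm38.p6, 5′ to 3′ on the gene's own strand, at chr6:4505368-4505617 (plus strand), chr1:45311288-45311537 (plus), chr2:27886175-27886424 (plus) and chr10:76726045-76726294 (minus). Capitals mark a CCAAT box (CCAAT or ATTGG), a GC box (GGGCGG or CCGCCC) or a TATA element (TATAAA or TTTATA).
Col1a2: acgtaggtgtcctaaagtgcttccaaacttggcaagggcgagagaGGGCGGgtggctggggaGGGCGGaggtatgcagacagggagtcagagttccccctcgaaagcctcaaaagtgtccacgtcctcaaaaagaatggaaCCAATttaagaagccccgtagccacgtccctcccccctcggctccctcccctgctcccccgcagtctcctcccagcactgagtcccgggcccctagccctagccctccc
Col3a1: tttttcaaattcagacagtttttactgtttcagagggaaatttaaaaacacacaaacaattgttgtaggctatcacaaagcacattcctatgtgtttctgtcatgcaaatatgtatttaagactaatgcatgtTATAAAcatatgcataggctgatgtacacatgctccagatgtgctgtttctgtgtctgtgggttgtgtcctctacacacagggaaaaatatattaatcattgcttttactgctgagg
Col5a1: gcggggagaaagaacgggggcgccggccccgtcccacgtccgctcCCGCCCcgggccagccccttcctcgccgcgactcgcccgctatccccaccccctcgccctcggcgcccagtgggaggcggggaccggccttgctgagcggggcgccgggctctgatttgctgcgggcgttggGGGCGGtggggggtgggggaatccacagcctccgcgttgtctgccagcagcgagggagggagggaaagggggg
Col6a1: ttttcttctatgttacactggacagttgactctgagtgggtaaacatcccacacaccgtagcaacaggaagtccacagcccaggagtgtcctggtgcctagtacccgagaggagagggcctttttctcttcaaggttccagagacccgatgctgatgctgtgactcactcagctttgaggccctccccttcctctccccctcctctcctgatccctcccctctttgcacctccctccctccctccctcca

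In these windows Col1a2 held 2 GC boxes and 1 CCAAT box, Col5a1 held 2 GC boxes, Col3a1 held 1 TATA element, 117 bases before the start, and Col6a1 held none of the 3 motifs. RefSeq promoters were matched for 30 of the 37 members; Col14a1, Col1a1, Col26a1, Col2a1, Col4a3, Col5a2 and Col9a3 were not matched. Of the 12 genes called lower averaged over treatments, 10 had a promoter, of which 4 held a CCAAT box, 6 a GC box and 1 a TATA element. Of the 11 other tested genes, 10 had a promoter, of which 7 held a CCAAT box, 7 a GC box and 2 a TATA element. Over 32851 promoters of the same length, each counted singly, the shares were 33.8%, 32.7% and 12.4%. A gene with more than 1 promoter was counted where any of them held the motif, which raises the gene counts against these shares. No motif of the 3 was present in all of the chains called lower.

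Col1a1 encodes the major chain of type I collagen, the main fibril of tendon and muscle sheaths. Its log2 level was 5.09, 7.49, 5.93 and 6.75 in Tg vehicle mice, against 8.78, 9.22, 9.77 and 9.88 in WT vehicle mice. Every Tg vehicle array lay below every WT vehicle array, with animals 2 and 4 the highest of the Tg mice. The difference was −3.10 ± 0.59 (SE), or 8.57-fold lower (limma, adjusted p = 0.0110). With 4b, Col1a1 was 5.18, 5.49 and 5.30 in Tg mice, against 9.71, 9.74, 9.35, 12.48 and 10.10 in WT mice. All 3 Tg 4b arrays sat near background, 1 of them detected, and WT 4b animal 4 stood above all other arrays. The difference with 4b was −4.95 ± 0.61 (SE) as fitted (limma, adjusted p = 0.000318). Set against the background floor of the Tg 4b arrays, Col1a1 was at least 28.65-fold lower, and at least 19.6-fold lower without WT 4b animal 4.

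Col1a2 encodes the partner chain in type I collagen. It was 4.97, 5.89, 5.01 and 5.48 in Tg vehicle mice, against 6.37, 6.80, 7.78 and 6.51 in WT vehicle mice. These groups did not overlap, yet the difference of −1.53 ± 0.64 (SE) did not pass (limma, adjusted p = 0.182). With 4b it was 5.13, 4.94 and 5.33 in Tg mice, against 5.57, 7.11, 7.98, 9.999 and 8.05 in WT mice. It was detected on no Tg 4b array, so the change is a bound: Col1a2 was at least 4.95-fold lower in Tg 4b mice (limma, adjusted p = 0.00981). The WT 4b mice spanned over 4 log2 units, with animal 1 lowest and animal 4 highest; without animal 4 the bound was 3.35-fold.

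Col3a1 encodes type III collagen, which mixes with type I in pliable tissue. Its brighter probe read 4.67, 5.80, 4.62 and 5.20 in Tg vehicle mice, against 6.495, 7.14, 8.28 and 7.97 in WT vehicle mice. No Tg vehicle array reached a WT vehicle array, and 1 of the 4 was detected. The difference was −2.40 ± 0.65 (SE), or 5.28-fold lower (limma, adjusted p = 0.0441), and the adjusted p ran from 0.0112 to 0.169 over the alternatives, 21 of 33 losing the call. With 4b the levels were 4.64, 4.91 and 4.72 in Tg mice, against 6.86, 7.09, 7.95, 10.66 and 8.75 in WT mice. The gene was not detected on any Tg 4b array, and was at least 7.09-fold lower there (limma, adjusted p = 0.00194), or at least 4.68-fold without WT 4b animal 4. A second Col3a1 probe was detected on 4 arrays, all WT, and passed the filter through these alone. It differed by −0.51 ± 0.31 (SE) with vehicle (limma over all probes, adjusted p = 0.390). Detected on no Tg 4b array, it was at least 1.26-fold lower with 4b (limma over all probes, adjusted p = 0.0293).

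Col5a1 encodes a type V chain, which seeds type I fibrils. It was 7.04, 8.99, 7.69 and 8.84 in Tg vehicle mice, against 9.39, 9.95, 10.12 and 10.29 in WT vehicle mice. The groups did not overlap, and Tg animals 2 and 4 came nearest to WT. The difference was −1.80 ± 0.42 (SE), or 3.47-fold lower (limma, adjusted p = 0.0229), a call that 8 of 33 alternatives lost, among them leaving out Tg vehicle animal 1 or 3 or WT vehicle animal 2 or 3 (adjusted p up to 0.126). With 4b it was 7.23, 6.80 and 7.69 in Tg mice, against 10.16, 10.11, 10.06, 11.56 and 10.27 in WT mice. Here too no Tg array reached a WT array, and the difference was −3.19 ± 0.44 (SE), or 9.13-fold lower (limma, adjusted p = 0.000466).

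Other fibrillar chains gave smaller or no differences. Col24a1, a minor fibrillar chain described mainly in bone, was detected on 0 of the 7 Tg arrays and entered the test through WT arrays. It ranged from 4.81 to 5.15 in Tg vehicle mice, against 4.92 to 6.997 in WT vehicle mice, at least 1.62-fold lower without passing (limma, adjusted p = 0.0911). With 4b it ranged from 4.78 to 4.91 in Tg mice, against 5.40 to 6.65 in WT mice, at least 1.60-fold lower (limma, adjusted p = 0.0282). Of 32 alternatives 8 lost it, including omission of any 1 of the 3 Tg 4b mice or of WT 4b animal 1, 2 or 3, and no filter on detection. A second probe was also detected on WT arrays only. Its bound was 1.81-fold with vehicle, without passing (limma over all probes, adjusted p = 0.0623), and 1.46-fold with 4b (adjusted p = 0.0393). Col5a3, a further type V chain, differed by −0.35 ± 0.22 (SE) with vehicle and −0.17 ± 0.23 (SE) with 4b. The cartilage chains Col2a1 and Col11a2 differed by −0.14 ± 0.19 and −0.17 ± 0.19 (SE) with vehicle and by −0.20 ± 0.20 and 0.10 ± 0.20 (SE) with 4b, and none of the 3 was called. In all, 3 of the 8 tested fibrillar genes were called lower with vehicle and 5 with 4b. Col5a2, outside the test, was detected on 1 array only, WT 4b animal 4, at 6.33 against 4.58 to 5.10 on the other 15; it was singled out after its values were seen.

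**Figure D2:**
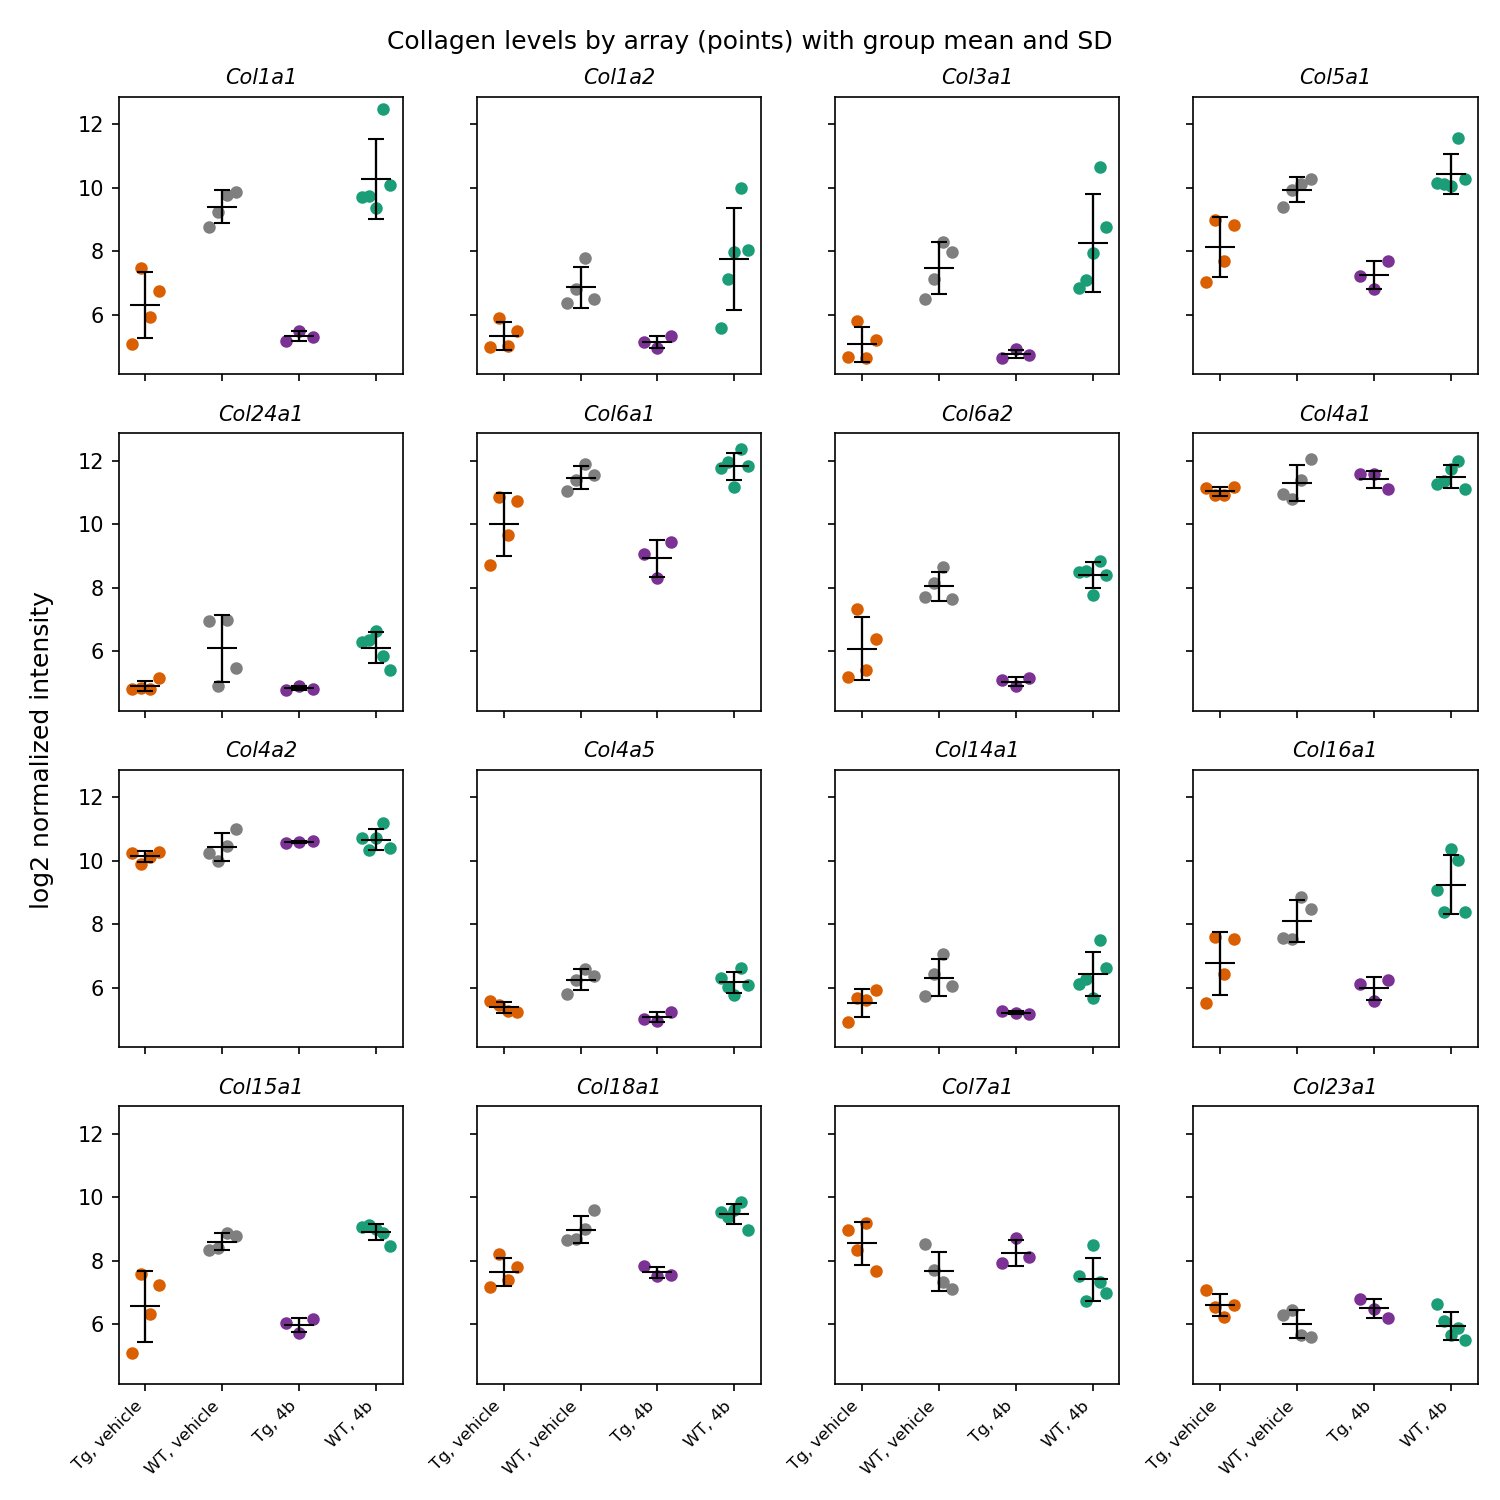
Log2 normalized intensity of 16 collagen genes, 1 point per array, with the group mean and SD as a bar and whiskers, in the group order Tg vehicle, WT vehicle, Tg 4b, WT 4b. Col1a1 in Tg 4b mice lies between 5.18 and 5.49, below all WT arrays, while Col4a1 overlaps in every group and WT 4b animal 4 tops the panels of Col1a1, Col1a2, Col3a1 and Col5a1.

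Type VI collagen encloses each muscle fibre. Col6a1 was 8.73, 10.86, 9.68 and 10.74 in Tg vehicle mice, against 11.05, 11.38, 11.89 and 11.57 in WT vehicle mice. Tg animals 2 and 4 lay just under the lowest WT array. The difference was −1.47 ± 0.41 (SE), or 2.77-fold lower (limma, adjusted p = 0.0496), and 20 of 33 alternatives lost this call, with adjusted p from 0.0158 to 0.151. In the 4b groups Col6a1 was 9.06, 8.29 and 9.43 in Tg mice, against 11.77, 11.97, 11.19, 12.38 and 11.84 in WT mice. The gap between these groups exceeded 1 log2 unit, and the difference was −2.90 ± 0.42 (SE), or 7.48-fold lower (limma, adjusted p = 0.000540). A second detected probe of Col6a1 differed by −1.83 ± 0.39 (SE) with vehicle (limma over all probes, adjusted p = 0.0155) and −3.10 ± 0.40 (SE) with 4b (adjusted p = 0.000326).

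Col6a2, the chain that pairs with Col6a1, was 5.18, 7.34, 5.41 and 6.39 in Tg vehicle mice, against 7.71, 8.14, 8.67 and 7.65 in WT vehicle mice. Again no array overlapped and animals 2 and 4 were the highest of the Tg mice, of which 2 were detected. The difference was −1.96 ± 0.39 (SE), or 3.90-fold lower (limma, adjusted p = 0.0123). Under 4b, Col6a2 read 5.08, 4.90 and 5.15 in Tg mice, against 8.49, 8.52, 7.76, 8.85 and 8.42 in WT mice. Col6a2 was not detected on any of the 3 Tg 4b arrays, and was at least 7.84-fold lower (limma, adjusted p = 0.000307).

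Type IV collagen behaved unevenly. Col4a1 and Col4a2, whose products form the common network of basement membranes, start 21 bases apart on opposite strands of chromosome 8 (GRCm38.p6). Col4a1 was 11.13, 10.93, 10.91 and 11.18 in Tg vehicle mice, against 10.96, 10.80, 11.40 and 12.06 in WT vehicle mice, and 11.57, 11.57 and 11.12 in Tg 4b mice, against 11.29, 11.36, 11.73, 11.99 and 11.12 in WT 4b mice. Groups overlapped under both treatments. The differences were −0.27 ± 0.25 (SE, 95% interval −0.80 to 0.27, limma adjusted p = 0.596) with vehicle and −0.08 ± 0.26 (SE, interval −0.63 to 0.47, adjusted p = 0.859) with 4b.

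Col4a2 was 10.26, 9.91, 10.14 and 10.28 in Tg vehicle mice, against 10.24, 9.98, 10.47 and 11.02 in WT vehicle mice, and 10.58, 10.58 and 10.62 in Tg 4b mice, against 10.72, 10.34, 10.71, 11.18 and 10.39 in WT 4b mice. It too overlapped, with differences of −0.28 ± 0.21 (SE, 95% interval −0.74 to 0.17, limma adjusted p = 0.496) and −0.07 ± 0.22 (SE, interval −0.54 to 0.39, adjusted p = 0.842). Col4a5 encodes a chain of a second type IV network, known from inherited kidney disease. It was 5.60, 5.44, 5.28 and 5.22 in Tg vehicle mice, against 5.80, 6.24, 6.58 and 6.38 in WT vehicle mice. These groups lay apart, with animal 1 of the WT mice nearest, and the difference was −0.87 ± 0.19 (SE), or 1.82-fold lower (limma, adjusted p = 0.0194). With 4b it was 5.01, 4.95 and 5.24 in Tg mice, against 6.32, 6.02, 5.77, 6.63 and 6.10 in WT mice. Col4a5 was detected on no Tg 4b array, and was at least 1.66-fold lower (limma, adjusted p = 0.00153). The vehicle call of Col4a5 was lost under 8 of 33 alternatives, median scaling among them.

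**Figure D3:**
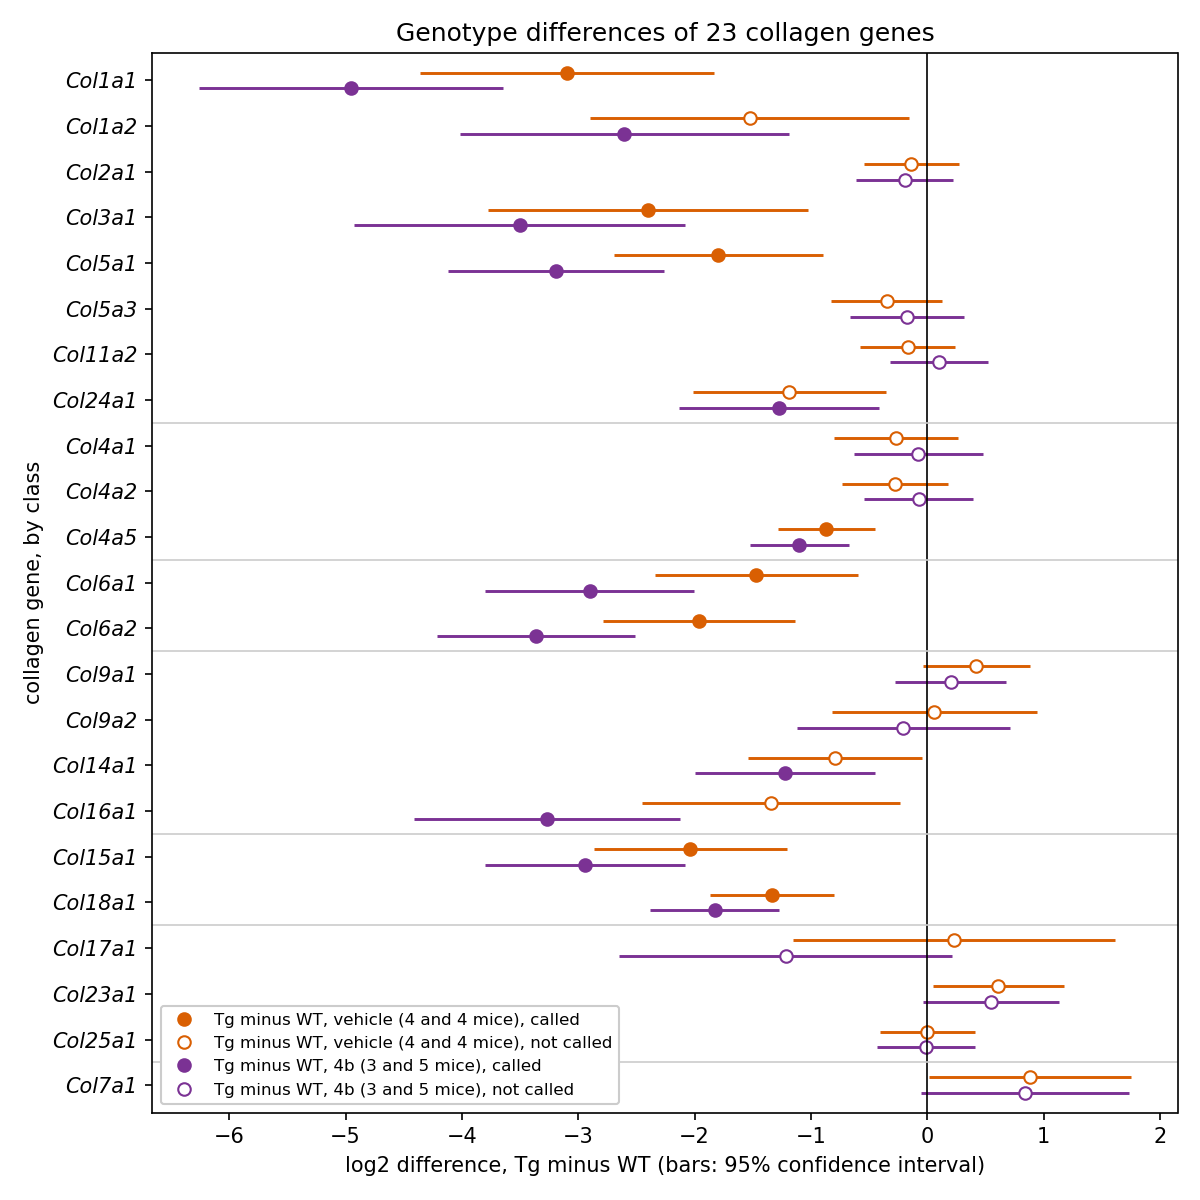
Log2 difference, Tg minus WT, of the 23 tested collagen genes with vehicle (orange) and with 4b (purple), with 95% confidence intervals and filled points where called. All are as fitted, also for genes not detected on the Tg arrays. Col1a1 lies farthest left under both treatments (−3.10 and −4.95), Col4a1 and Col4a2 straddle 0, and Col7a1 and Col23a1 lie right of 0.

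Multiplexins sit at the outer face of basement membranes, and their ends can be cut off as antiangiogenic fragments. Col15a1 was 5.08, 7.60, 6.34 and 7.23 in Tg vehicle mice, against 8.34, 8.40, 8.88 and 8.78 in WT vehicle mice. No array overlapped, and the difference was −2.04 ± 0.39 (SE), or 4.10-fold lower (limma, adjusted p = 0.0110). Given 4b, Col15a1 was 6.05, 5.71 and 6.15 in Tg mice, against 9.06, 9.14, 9.02, 8.88 and 8.48 in WT mice. The gap was over 2 log2 units, and the difference was −2.94 ± 0.40 (SE), or 7.68-fold lower (limma, adjusted p = 0.000466).

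Col18a1, the source of endostatin, was 7.19, 8.21, 7.40 and 7.80 in Tg vehicle mice, against 8.67, 8.67, 9.001 and 9.60 in WT vehicle mice. The groups lay apart by a narrow margin at Tg animal 2, and the difference was −1.33 ± 0.25 (SE), or 2.52-fold lower (limma, adjusted p = 0.010). Under 4b the levels were 7.83, 7.52 and 7.57 in Tg mice, against 9.54, 9.38, 9.60, 9.84 and 8.99 in WT mice. The groups stood over 1 log2 unit apart, with a difference of −1.83 ± 0.26 (SE), or 3.55-fold lower (limma, adjusted p = 0.000495). A second Col18a1 probe, detected on 3 arrays, all WT, differed by −0.49 ± 0.15 (SE) with vehicle (limma over all probes, adjusted p = 0.0672) and −0.31 ± 0.15 (SE) with 4b (adjusted p = 0.141).

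Fibril-associated collagens coat the fibril surface. Col16a1 was 5.53, 7.61, 6.44 and 7.53 in Tg vehicle mice, against 7.57, 7.55, 8.87 and 8.48 in WT vehicle mice. Tg animal 2 overlapped the lower WT mice, and the difference of −1.34 ± 0.52 (SE) did not pass (limma, adjusted p = 0.147). Given 4b, Col16a1 was 6.11, 5.58 and 6.25 in Tg mice, against 9.07, 8.37, 10.38, 10.02 and 8.40 in WT mice. These groups were over 2 log2 units apart, and the difference was −3.27 ± 0.54 (SE), or 9.64-fold lower (limma, adjusted p = 0.000924).

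Col14a1, which binds type I fibrils in tendon and muscle sheaths, ranged from 4.91 to 5.93 in Tg vehicle mice, against 5.73 to 7.08 in WT vehicle mice, and did not pass (−0.79 ± 0.35 SE, limma adjusted p = 0.206). With 4b it ranged from 5.16 to 5.28 in Tg mice, detected on none of them, against 5.68 to 7.52 in WT mice, at least 2.01-fold lower (limma, adjusted p = 0.0211). That call was lost under 4 of 33 alternatives. These left out Tg 4b animal 1, Tg 4b animal 2, the 6 lymphocyte-marker arrays or the 6 Krt14 arrays. The cartilage chains Col9a1 and Col9a2 were not called under either treatment, with differences of 0.42 ± 0.22 and 0.06 ± 0.41 (SE) with vehicle and 0.20 ± 0.22 and −0.21 ± 0.43 (SE) with 4b. Col9a2 reached 7.603 on WT 4b animal 3, against 5.11 to 6.29 on the other 15 arrays.

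The 2 genes called higher in Tg mice were neither fibrillar nor of types IV or VI. Col7a1 encodes the anchoring fibrils that tie epithelium to the tissue beneath. It ranged from 7.68 to 9.19 in Tg vehicle mice, against 7.12 to 8.51 in WT vehicle mice, and from 7.92 to 8.71 in Tg 4b mice, against 6.72 to 8.51 in WT 4b mice. The groups overlapped under both treatments, with differences of 0.88 ± 0.41 (SE, limma adjusted p = 0.227) and 0.84 ± 0.42 (SE, adjusted p = 0.151). Averaged over treatments Col7a1 rose by 0.86 ± 0.29 (SE, limma adjusted p = 0.0347), a call that 13 of 32 alternatives lost.

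Col23a1, a transmembrane collagen, ranged from 6.24 to 7.08 in Tg vehicle mice, against 5.61 to 6.46 in WT vehicle mice, and from 6.21 to 6.80 in Tg 4b mice, against 5.51 to 6.63 in WT 4b mice. It overlapped under both treatments and was called only in the average, at 0.58 ± 0.19 (SE, limma adjusted p = 0.0299), which 9 of 32 alternatives lost. Col25a1, a transmembrane collagen needed for motor nerve contact in developing muscle, differed by −0.0017 ± 0.19 (SE) with vehicle and −0.01 ± 0.20 (SE) with 4b.

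Col17a1 joins skin epithelial cells to their base and was high on single arrays. Its brightest probe was 5.17, 7.08, 5.24 and 4.80 in Tg vehicle mice, against 4.93, 6.41, 4.85 and 5.16 in WT vehicle mice, and 5.11, 5.86 and 4.91 in Tg 4b mice, against 7.12, 5.42, 8.53, 5.27 and 6.23 in WT 4b mice. High arrays were found in more than 1 group, with WT 4b animals 3 and 1 the highest. Neither the vehicle difference of 0.23 ± 0.65 (SE) nor the 4b difference of −1.22 ± 0.67 (SE, limma adjusted p = 0.191) passed. The other 2 detected probes gave 0.12 and 0.30 with vehicle and −0.55 and −1.54 with 4b, none called. The array highest for Col17a1, WT 4b animal 3, was also highest for Krt14 (12.01), for the skin barrier genes Lor (11.78) and Krtdap (11.10), and for Col9a2. The mean of the 6 keratinocyte markers, all of them on the array and tested, ran from 5.78 to 9.05 in Tg vehicle mice, against 5.72 to 8.26 in WT vehicle mice, and from 5.83 to 7.603 in Tg 4b mice, against 5.997 to 10.51 in WT 4b mice. With vehicle all 6 lay higher in Tg mice (median 0.27) with 0 called, and with 4b all 6 lay lower (median −1.465). Krt10 was called lower with 4b, 1 of 6, against 12.8% of all genes. In WT mice all 6 lay higher with 4b than with vehicle (median 1.54), with 0 called. The part of these markers in the levels of Col17a1 was not tested.

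**Figure D4:**
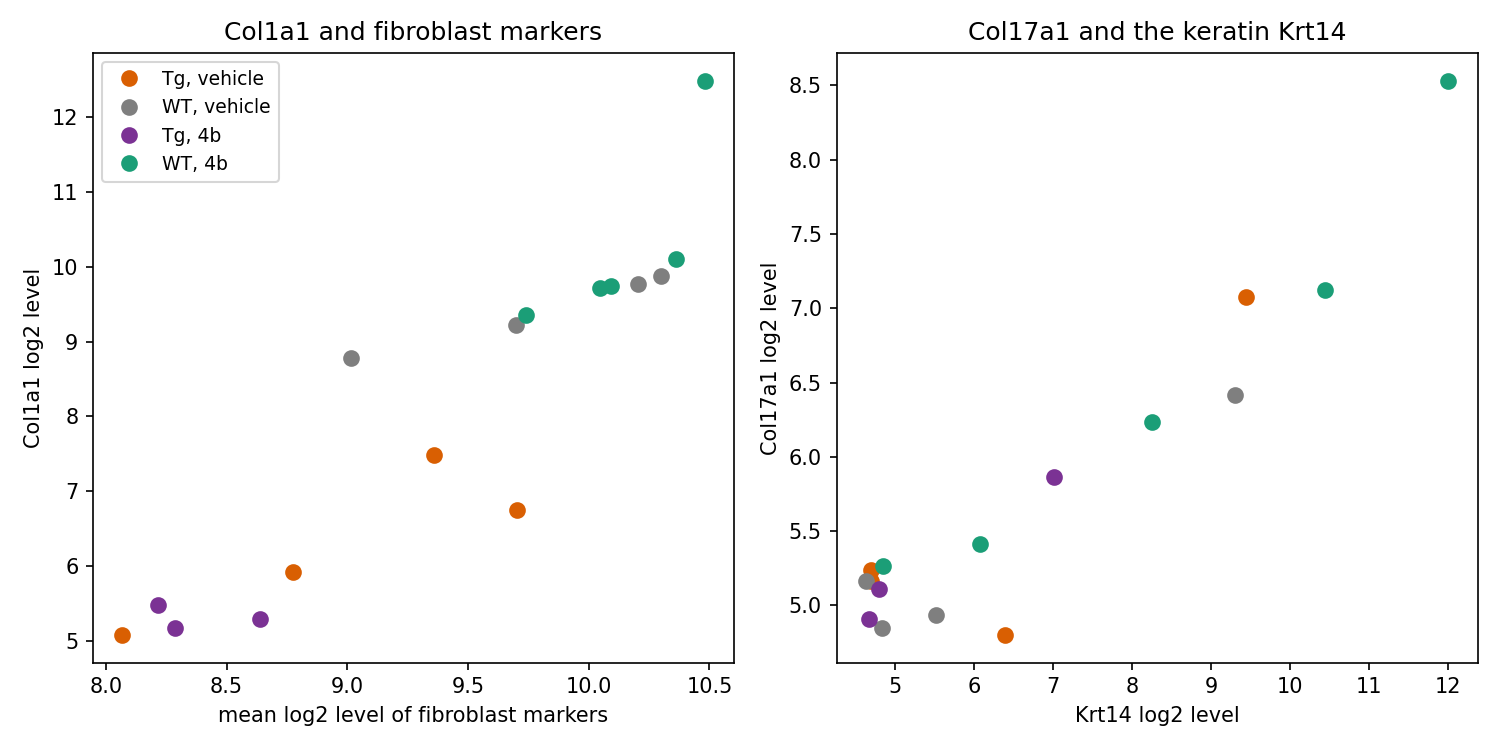
Left, Col1a1 log2 level against the mean log2 level of 10 fibroblast markers, and right, Col17a1 against the keratin Krt14, 1 point per array coloured by group. Tg 4b arrays (markers 8.22 to 8.64) sit at the low corner of the left panel with Tg vehicle animal 1 (markers 8.07). WT 4b animal 3 sits at the upper corner of the right panel (Krt14 12.01).

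Fibroblast markers moved with the collagens that were called lower. Of 12 listed markers, 10 had probes and all 10 were tested; Ly6a and Smoc2 were not analysed here. Their mean log2 level was 8.07, 9.36, 8.77 and 9.70 in Tg vehicle mice, against 9.02, 9.70, 10.20 and 10.30 in WT vehicle mice, and 8.29, 8.22 and 8.64 in Tg 4b mice, against 10.05, 10.09, 9.74, 10.48 and 10.36 in WT 4b mice. The groups overlapped with vehicle and lay apart with 4b, and Tg vehicle animals 2 and 4, the highest for most of the called collagens, were also the highest for these markers. At marker means of 9.36 and 9.70, those 2 Tg mice had Col1a1 at 7.49 and 6.75, against 8.78 and 9.22 in the WT vehicle mice with marker means of 9.02 and 9.70. These arrays were set side by side after their values were seen, and no test was run on them. With vehicle 1 of 10 was called lower, against 2.91% of all genes (Pi16, −2.12 ± 0.49 SE, limma adjusted p = 0.0208), and with 4b 7 of 10, against 12.8% of all genes, led by Pi16 (−3.27 ± 0.50 SE, adjusted p = 0.000660), Cd34, Clec3b and Lum. Tendon markers, 6 of 9 tested, were called lower for 0 of 6 with vehicle and 4 of 6 with 4b, beside the same shares of all genes (Kera, Fmod, Chad, Comp), and Thbs4 was detected on no array. Their mean ran from 6.14 to 7.68 in Tg vehicle mice, against 6.58 to 7.35 in WT vehicle mice, and from 5.57 to 6.63 in Tg 4b mice, against 6.94 to 8.30 in WT 4b mice. Leukocyte markers, 8 of 12 tested, averaged 6.99 to 8.08 in Tg vehicle mice, against 6.28 to 8.83 in WT vehicle mice, and 7.37 to 7.77 in Tg 4b mice, against 8.15 to 9.03 in WT 4b mice. With 4b 1 of these 8 was called lower (Adgre1), near the 12.8% of all genes, and Itgam was detected on no array. Of 8 tested endothelial markers, 0 were called lower and 1 higher with 4b (Pecam1), where 15.5% of all genes were called higher. Of 9 tested smooth muscle and pericyte markers, 1 was called lower (Cspg4) and 1 higher (Des) with 4b, beside 12.8% and 15.5% of all genes. Des was also called higher with vehicle, 1 of 9, against 2.39% of all genes. Of 8 tested adipocyte markers, 1 was called lower (Car3) and 1 higher (Plin4) with 4b, beside the same 12.8% and 15.5%. In whole-muscle RNA, fewer cells of a type and less RNA per cell cannot be told apart, and the part of these markers in the collagen differences was not tested.

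Genes that act on collagen chains were read from lists drawn up with earlier results of these data known. Of 16 tested genes that modify and fold the chains, 8 were called lower and 3 higher in Tg mice averaged over treatments, where 15.4% of all genes were called lower and 17.9% higher, so the share called higher is that of all genes. Serpinh1, the collagen chaperone, fell by 1.15 ± 0.23 (SE) with vehicle (limma, adjusted p = 0.0140) and by 1.55 ± 0.24 (SE) with 4b (adjusted p = 0.000706). P4ha1, which hydroxylates proline, fell by 1.12 ± 0.30 (SE) with vehicle (limma, adjusted p = 0.0447) and by 1.09 ± 0.31 (SE) with 4b (adjusted p = 0.0178). Colgalt2, which adds galactose to hydroxylysine, and Crtap, part of a prolyl hydroxylation complex, also fell in the average, by 1.07 ± 0.20 and 0.80 ± 0.17 (SE, limma adjusted p = 0.00126 and 0.00218). P3h4, Mia3, which helps load procollagen into transport carriers, and P3h2 were the 3 called higher, by 0.97, 0.68 and 0.44 on the log2 scale.

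Of 6 tested genes that trim and crosslink collagen, 5 were called lower averaged over treatments, against 15.4% of all genes, a share that also stands beside the next counts. Pcolce, which speeds removal of the C-terminal propeptide, fell by 2.08 ± 0.28 (SE, limma adjusted p = 0.000136), and Bmp1, the protease it helps, by 1.49 ± 0.22 (SE, adjusted p = 0.000245). The crosslinking oxidase genes Loxl1 and Loxl2 were called, at −1.49 ± 0.25 and −0.56 ± 0.15 (SE, limma adjusted p = 0.000552 and 0.0123), while Lox was not, at 0.83 (adjusted p = 0.129). Among 7 receptors, 2 were called lower: Itga11, an integrin chain that binds type I fibrils (−1.85 ± 0.26 SE, limma adjusted p = 0.000197), and Cd44 (−1.07 ± 0.22 SE, adjusted p = 0.00233). Of 11 fibril-binding proteins 9 were called lower, led by Tnxb, Lum, Sparc and Kera (−1.18, −2.75, −1.18 and −1.33), of which Lum also stands among the fibroblast markers and Kera among the tendon markers. With vehicle alone the counts were 2 of 16, 1 of 6, 1 of 7 and 1 of 11, all lower, against 2.91% of all genes.

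Among 9 tested basement membrane partners of type IV collagen, 3 were called lower averaged over treatments, against 15.4% of all genes. Hspg2, or perlecan, fell by 1.11 ± 0.16 (SE, limma adjusted p = 0.000197), Nid2 by 0.88 ± 0.19 (SE, adjusted p = 0.00248) and Nid1 by 1.29 ± 0.31 (SE, adjusted p = 0.00492), while the 4 laminin chains tested were not called. Of 14 tested genes of TGF-beta signalling, a known driver of collagen transcription, 3 were lower (Smad3, Ltbp4, Tgfb2, at −0.94, −0.92 and −0.75) and 3 higher (Tgfbr1, Tgfbr3, Smad4, at 0.37, 0.58 and 0.38), where 15.4% and 17.9% of all genes were called in the same comparison.

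The compound itself called no collagen gene. In Tg mice 4b gave 0 calls of 23, where 0.00971% of all genes were called higher and 0% lower, with 2 of 23 at an unadjusted p under 0.05 against 14.7% of all genes. The smallest adjusted p in limma was 0.266, for Col6a2, which was not called. Its 3 Tg 4b arrays lay below all 4 Tg vehicle arrays (bound between the means 1.56-fold), an order seen in 3.73% of all genes. Col4a2 lay higher on all Tg 4b arrays than on all Tg vehicle arrays, by 0.45 ± 0.23 (SE, limma adjusted p = 0.384), an order seen in 4.85%. Col6a1 differed by −1.08 ± 0.44 (SE, limma adjusted p = 0.272), and was called with array weights (adjusted p = 0.0129) and without Tg vehicle animal 1 (adjusted p = 0.0470). Col1a1 differed by −0.99 ± 0.64 (SE, 95% interval −2.36 to 0.38, limma adjusted p = 0.504), and the median of the 23 was −0.20. In WT mice 4b gave 0 calls of 23, where 0% of all genes were called, with 1 of 23 at an unadjusted p under 0.05 (Col16a1, 1.13 ± 0.49 SE) against 2.67% of all genes, and a median of 0.24. For Col1a1 the WT difference was 0.87 ± 0.56 (SE, 95% interval −0.33 to 2.07, limma adjusted p = 0.9999).

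Whether the genotype difference changed with 4b was tested as the genotype by 4b interaction, which called 0 of 23 genes and 0% of all genes. Unadjusted p under 0.05 was met by 5 of 23, against 10.1% of all genes. These were Col16a1 (−1.93 ± 0.75 SE), Col6a2 (−1.40 ± 0.56 SE), Col6a1 (−1.43 ± 0.59 SE), Col5a1 (−1.39 ± 0.61 SE) and Col1a1 (−1.86 ± 0.85 SE), with adjusted p from 0.458 to 0.487 in limma. A larger genotype difference with 4b is therefore not shown.

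Averaged over treatments the 12 genes called lower were Col1a1 (−4.03 ± 0.43 SE), Col3a1 (−2.95 ± 0.46 SE), Col6a2 (−2.66 ± 0.28 SE), Col5a1 (−2.49 ± 0.30 SE), Col15a1 (−2.49 ± 0.28 SE), Col16a1 (−2.30 ± 0.37 SE), Col6a1 (−2.19 ± 0.29 SE), Col1a2 (−2.07 ± 0.46 SE), Col18a1 (−1.58 ± 0.18 SE), Col14a1 (−1.01 ± 0.25 SE), Col4a5 (−0.98 ± 0.14 SE) and, as a bound, Col24a1 (at least 1.61-fold lower). Their adjusted p in limma ran from 3.055e-05 for Col1a1 to 0.00694 for Col14a1. Of the 23 tested genes, 8 had all 7 Tg arrays below all 9 WT arrays, against 2.8% of all genes, and these 8 were among the 12. The count called lower stayed at 11 or 12 under all 32 alternatives that could be run for it. Within vehicle it fell to 4 or 5 on leaving out Tg vehicle animal 1 (5) or 3 (4) or WT vehicle animal 2 (5) or 3 (4).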

How the data were processed

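RNA from gastrocnemius was read on 16 Illumina bead arrays, 1 per mouse, and replicates are numbered in the order of deposit. Per the file headers, the deposited non-normalized table gives each probe on each array a bead intensity with its detection p-value. The sources used here name neither the scanner software nor the controls that set the p-value. The authors' second table holds log2 values, which on comparison equalled log2 of the deposited intensities after quantile normalization with no background correction.

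Intensities (81.2 to 44501) were background-corrected in limma 3.58.1 (R 4.3.3) by normexp estimated from the detection p-values, with an offset of 16, then quantile-normalized and taken to log2. Quantile normalization gives every array the same distribution, and the offset compresses differences between dim probes. Probes with a detection p under 0.05 on at least 3 arrays were kept (13706 of 25697). The probe of highest mean stood for a gene, giving 10295 tested genes and unannotated probes, of which 9521 had a symbol. Platform annotation gave 1 symbol to 23978 probes, several to 0 and none to 1719. Every table column could be tied to a sample.

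Means of the 4 groups were fitted in limma on all 16 arrays (12 residual degrees of freedom) and compared in 6 two-sided contrasts with Benjamini-Hochberg adjustment over 10295 tests. Other detected probes of a gene come from the same model over 13706 probes. Calls are at an adjusted p under 0.05. The model was tested on simulated data with known changes. The number of arrays limits the precision. Where a probe was detected on no array of a group, the fold is a bound. The mean of the brighter group was set against the mean, over the dim arrays, of a floor. That floor was the lowest level of any detected probe, or the dim probe itself where that was brighter. The bound compares group means and makes no allowance for their sampling error.

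The 10 genes of smallest p over the genotype comparisons, with Col4a1 and Col4a2, are given per array, and the others by range. In the other lists up to 4 called genes of smallest p are named. The members, gene lists and tests were chosen with earlier results of these data known. The keratinocyte list and the 3 omissions of arrays (high lymphocyte markers, high Krt14, animals numbered in 3 digits) were added after the data were seen. The animals numbered in 3 digits were WT vehicle animal 2 and WT 4b animal 1, so all were WT. Every Tg mouse had a number of 4 digits, and the labels do not say what the numbering stands for. Other alternatives changed the background correction, normalization, filter, probe rule, arrays in the model, variance model, array weights, covariates (Xist level among them) and left out each array in turn. Promoters are from RefSeq. Figures were drawn with matplotlib 3.10.9 in Python 3.11.15.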

Additional observations from a re-analysis of the deposited data

Results flagged for a closer look

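In 3 of the 69 sets of arrays examined (23 genes in each of the 3 groups of 4 or 5 arrays), 1 array lay farther from its group than Dixon's 95% limit; chance gives about 5% of sets. Col1a1 was 12.48 on WT 4b animal 4, against 9.35 to 10.10 on the other WT 4b arrays, with a gap of 0.76 of the range. Col5a1 was 11.56 on the same array, against 10.06 to 10.27, with a gap of 0.866 of the range. Without that array both genes stayed lower in Tg 4b than in WT 4b mice (−4.40 and −2.91, limma adjusted p = 0.000156 and 0.000864). Col24a1 was 5.153 on Tg vehicle animal 4, against 4.81 to 4.84 on the other Tg vehicle arrays, with a gap of 0.908 of the range, and it was not detected on any of them.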

How the results depend on the processing

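Over 33 alternatives, 4478 values of single genes were recomputed: 4181 kept direction and side of the threshold, 115 lost a call, 10 gained one, 172 changed sign with neither value called, and 0 called values reversed. The 8 genes called lower in Tg with vehicle became 2 with only the arrays compared in the model, 4 without the 6 lymphocyte-marker arrays, 1 without the 6 Krt14 arrays, 5 without 2 animals numbered in 3 digits, and 4 to 8 on leaving out 1 array. The 12 called lower with 4b became 0 without the lymphocyte-marker arrays, 2 without the Krt14 arrays, and 10 to 12 on leaving out 1 array; all genes called lower in that comparison then numbered 2 and 25. The 0 called higher with 4b became 2 with array weights (Col7a1, Col23a1), 1 without the animals numbered in 3 digits, and 0 to 1 on leaving out 1 array. Averaged over treatments, 2 called higher became 1 with no filter, 1 with ordinary variance, 1 without the lymphocyte-marker arrays, 0 without the Krt14 arrays, 1 without the animals numbered in 3 digits, and 0 to 2 on leaving out 1 array. For 4b in Tg mice, 0 called lower became 1 (Col6a1) with array weights and 0 to 1 on leaving out 1 array. With vehicle, all genes called lower fell from 300 to 17 without the Krt14 arrays but did not fall without the lymphocyte-marker arrays. The omissions also reduce the arrays compared, and the cause of these changes was not tested. After median scaling the collagen genes called lower numbered 6 with vehicle and 12 with 4b. No paired analysis was possible because the labels carry no replicate number shared between groups. Calls of Col1a1, Col3a1, Col1a2, Col6a2, Col4a5, Col14a1 and Col24a1 rest on Tg levels near background, which limits the folds.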
